A study of Mus musculus with 6 samples.

Results

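The citric acid cycle enzymes examined here were the 9 genes Cs, Idh2, Idh3a, Ogdh, Suclg1, Suclg2, Sdha, Fh1 and Mdh2, taken by symbol from a count table of 46095 genes, of which 14611 had enough reads to be tested. All 9 passed that filter, and the lowest count of any of them in any library was 516. RNA was sequenced from freshly isolated primary tubular epithelial cells (PTECs) of 6 mice of 10 weeks of age, 3 with the genotype VHL-KO (libraries 1, 2 and 4) and 3 with the genotype VHL-KO;SETD2-KO (libraries 2, 3 and 4). In both genotypes the Ksp-Cre transgene, driven by the Cdh16 promoter, deletes floxed VHL in renal tubular cells, and in the second it deletes floxed Setd2 as well, so every library came from mice with the VHL deletion and no wild-type library was part of the comparison. The Cdh16 promoter is known to be most active in distal and collecting segments, and the cells were isolated to raise the share that carry the recombinase, so other cells of the kidney can remain in the preparations. The comparison asks how additional loss of SETD2, the enzyme that trimethylates lysine 36 of histone H3, changed transcripts in VHL-deficient tubular cells.

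The citric acid cycle runs in the mitochondrial matrix and oxidizes acetyl-CoA to carbon dioxide, handing electrons to the respiratory chain. Proximal tubule cells depend on it heavily, because reabsorption consumes much ATP and is fuelled mainly by fatty acids rather than by glucose. VHL marks hypoxia-inducible factors for degradation, and their stabilization after VHL loss is known for turning cells towards glycolysis, in part by raising pyruvate dehydrogenase kinases that limit entry of pyruvate into the cycle. Loss of function of fumarate hydratase or succinate dehydrogenase in human kidney tumours leads to accumulation of fumarate or succinate, which inhibits oxygenases that use 2-oxoglutarate.

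Totals ranged from 11168552 to 17883466 counts per library, and 3 counts, the smallest signal taken as detectable, corresponded to 0.168 to 0.269 CPM (counts scaled to the size of the library, and for all gene levels below also by TMM factors, which even out differences in composition), which covers counting error only. Setd2 itself did not follow the labels: it stood at 71.5, 73.9 and 12.3 CPM in VHL-KO 1, 2 and 4 and at 79.6, 57.4 and 89.6 CPM in VHL-KO;SETD2-KO 2, 3 and 4 (log2 fold change 0.52 ± 0.64 SE, adjusted p = 0.787, edgeR's quasi-likelihood test). The lowest Setd2 level was thus in a library labelled VHL-KO, and the Setd2 counts by themselves do not bear out the genotype labels. By other measurements in its mice, the paper reports lower SETD2 protein (against wild type), Setd2 mRNA (against VHL-KO) and H3K36 trimethylation. VHL-KO 4 also differed from VHL-KO 1 and 2 along GC content and transcript length over all genes, as given below. The part of this in its Setd2 value was not tested. The counts cover the whole gene, so transcripts lacking only the deleted exons would still be counted, which does not bear on the low value in VHL-KO 4. Whether any library was exchanged was not tested, so groups are named by their labels, and every difference below is one between labels. Vhl was at 14.1, 12.9 and 25.8 CPM in VHL-KO 1, 2 and 4 beside 14.4, 17.9 and 11.9 CPM. Cdh16, whose promoter drives the Cre, stood at 530.8, 517 and 2257 CPM against 332, 684 and 359 CPM. The library labelled VHL-KO 4 stood apart from the rest, with Spearman correlations of 0.717 to 0.765 to the other 5 libraries, against 0.937 to 0.986 among those 5, and with 11.3% of its counts on mitochondrial DNA genes against 25.9% to 36.4%. The library labelled VHL-KO;SETD2-KO 3 held 11704 Xist counts against 0 to 4 in the others, and 1 count over 4 Y-linked genes against 260 to 3283. By these sex-linked genes it read as female and the others as male, while the labels give no sex. Sex and any other difference of this library cannot be told apart. Results are given with all libraries, without VHL-KO 4, and without both VHL-KO 4 and VHL-KO;SETD2-KO 3.

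None of the 9 enzymes passed edgeR's quasi-likelihood test between the genotypes in the comparison of all 6 libraries. For 8 of the 9 the mean level was lower under VHL-KO;SETD2-KO, with a median log2 fold change of -0.57 beside 0.01 over all tested genes, but the spread between libraries was as large as these differences. No member reached an unadjusted p under 0.05 with a fold change of at least 1.5 in either direction, where 4.68% of all tested genes were called lower and 2.65% higher. With adjusted p-values 0.00684% of all tested genes were called, and the members' adjusted p-values lay between 0.625 and 0.986. DESeq2 and limma-voom also gave 0 members with an unadjusted p under 0.05, while limma-voom with sample quality weights gave 5 of 9 in the lower direction at any fold, against 17% of all genes, and none of them by 1.5-fold. In bulk RNA, fewer cells of a type and less RNA per cell cannot be told apart, and nothing below separates them.

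**Figure D1:**
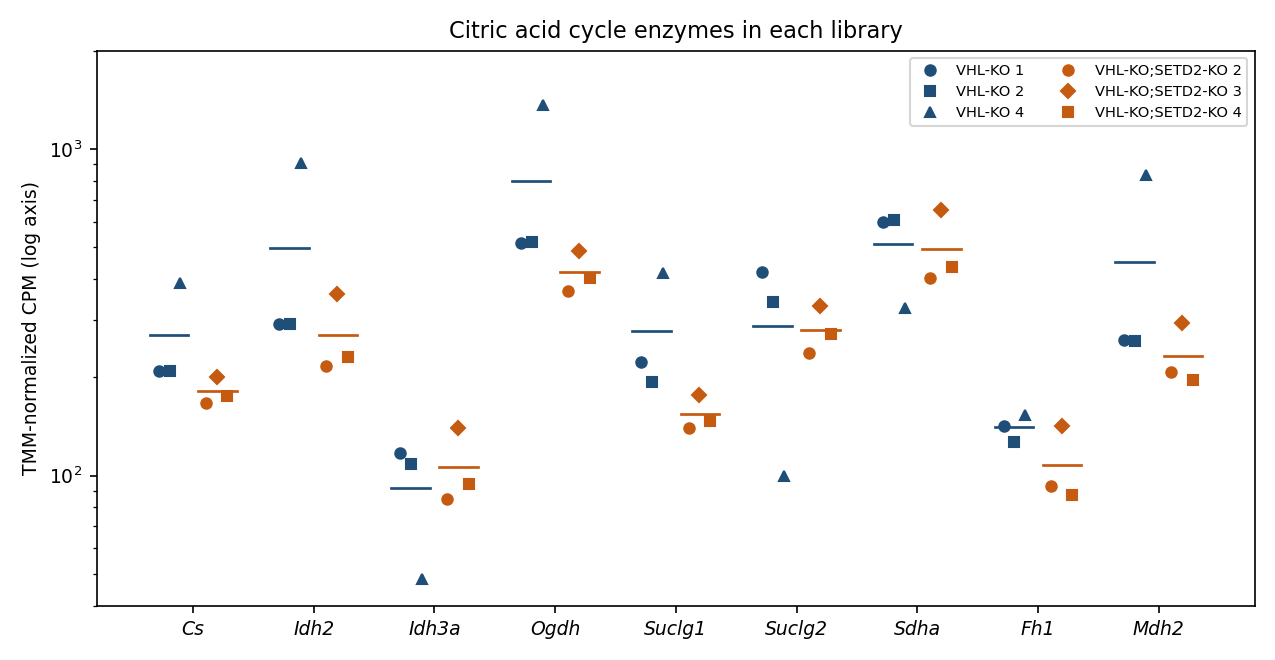
TMM-normalized CPM (log axis) of the 9 enzymes in each of the 6 libraries, with blue points for libraries labelled VHL-KO, orange points for VHL-KO;SETD2-KO, and horizontal lines for the group means. The blue triangle, VHL-KO 4, lies above all other libraries for Cs, Idh2, Ogdh, Suclg1, Fh1 and Mdh2 and below all of them for Idh3a, Suclg2 and Sdha, while the orange diamond, VHL-KO;SETD2-KO 3, is the highest of its group for every gene.

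The labels did not overlap for 3 members, all lower under VHL-KO;SETD2-KO, which is read against 11% of all tested genes that were lower without overlap and 9.62% that were higher without overlap. Those 3 were Cs, Ogdh and Suclg1, and their promoters are printed here because they are the members whose library values separate. The windows are RefSeq promoters on GRCm38.p6, from 250 bases before to 50 after the start site, at chr10:128337477-128337776 on the plus strand for Cs, chr11:6291409-6291708 on the plus strand for Ogdh and chr6:73248255-73248554 on the plus strand for Suclg1. Ogdh has 6 such windows, and the one with its start site nearest the 5′ end of the GENCODE gene is shown. Capitals mark matches, on either strand, to the motif cores searched for.
Cs: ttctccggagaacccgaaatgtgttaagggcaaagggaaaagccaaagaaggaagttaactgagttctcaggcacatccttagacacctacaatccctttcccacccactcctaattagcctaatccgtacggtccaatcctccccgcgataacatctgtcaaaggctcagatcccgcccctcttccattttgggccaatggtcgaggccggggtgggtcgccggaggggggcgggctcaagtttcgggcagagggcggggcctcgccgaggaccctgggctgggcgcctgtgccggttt
Ogdh: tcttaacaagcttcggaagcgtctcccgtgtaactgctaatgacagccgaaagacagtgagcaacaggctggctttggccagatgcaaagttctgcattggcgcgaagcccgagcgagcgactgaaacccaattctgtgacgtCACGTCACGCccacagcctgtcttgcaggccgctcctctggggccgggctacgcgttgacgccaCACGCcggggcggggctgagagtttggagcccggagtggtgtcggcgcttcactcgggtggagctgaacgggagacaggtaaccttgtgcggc
Suclg1: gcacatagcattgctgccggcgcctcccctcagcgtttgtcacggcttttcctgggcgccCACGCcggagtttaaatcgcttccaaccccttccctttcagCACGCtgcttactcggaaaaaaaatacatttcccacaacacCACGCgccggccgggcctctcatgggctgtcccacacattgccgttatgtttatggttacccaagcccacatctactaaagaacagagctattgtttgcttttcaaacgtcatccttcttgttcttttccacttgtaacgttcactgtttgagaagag

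The search covered the nuclear respiratory factor 1 core GCGCATGC, the estrogen-related receptor element AAGGTCA, the ETS family core CCGGAAG and the hypoxia response cores ACGTG and GCGTG. Windows were found for 8 of the 9 members, and Idh3a was not matched. The core GCGTG occurred in a window of 6 of the 8 members, among them Ogdh and Suclg1, beside 32.4% of all 32851 windows. The core ACGTG occurred in 2 of the 8, Ogdh and Sdha, beside 19.6% of all windows. Ogdh alone, through 2 different kinds of its windows, held the respiratory factor core (2.71% of all windows) and the estrogen-related receptor element (4.72%), and with 6 windows it had more sequence in which to match than a gene with 1. The ETS core was in 0 of the 8 members' windows, beside 8.86% of all windows. These matches describe letters in a window and are not evidence of binding, and the Cs window printed above holds no capitals.

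Cs encodes citrate synthase, which joins acetyl-CoA to oxaloacetate and opens the cycle (chr10:128337734-128362479, plus strand, GRCm38). It was measured at 209.9, 208.9 and 389.6 CPM in VHL-KO 1, 2 and 4 and at 166, 201 and 176 CPM in VHL-KO;SETD2-KO 2, 3 and 4. The lowest VHL-KO library and the highest VHL-KO;SETD2-KO library were thus close together, and the gap between the group means came mostly from VHL-KO 4. The log2 fold change was -0.57 ± 0.43 (SE, n = 3 a group), and -0.21 ± 0.16 without VHL-KO 4.

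The isocitrate dehydrogenase step has enzymes of 2 kinds. Idh3a (chr9:54586334-54604661, plus strand) encodes the catalytic alpha subunit of the NAD-dependent enzyme, the form usually assigned to the oxidative cycle. Its levels were 118, 109 and 48.3 CPM under VHL-KO and 85.1, 139.9 and 94.5 CPM under VHL-KO;SETD2-KO, so both the lowest value and the highest sat in libraries that stand apart. Idh3a was the only member with a higher mean under VHL-KO;SETD2-KO (0.22 ± 0.47), and the sign turned to -0.09 ± 0.24 without VHL-KO 4. Idh2 (chr7:80094846-80115392, minus strand) encodes the NADP-dependent mitochondrial enzyme, which can also run in the reductive direction. Idh2 was at 291, 291 and 909.6 CPM and at 216, 361 and 230.3 CPM, and the 3 VHL-KO;SETD2-KO libraries straddled the first 2 VHL-KO libraries. Its log2 fold change went from -0.89 ± 0.58 to -0.12 ± 0.26 once VHL-KO 4 was left out.

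Ogdh (chr11:6291633-6356642, plus strand) encodes the E1 subunit of the 2-oxoglutarate dehydrogenase complex, which makes succinyl-CoA. It was measured at 516, 520.5 and 1367 CPM in VHL-KO 1, 2 and 4 and at 368, 489 and 404 CPM in VHL-KO;SETD2-KO 2, 3 and 4. All 3 VHL-KO;SETD2-KO values were below all 3 VHL-KO values, by as little as 489 against 516 CPM. The log2 fold change was -0.93 ± 0.52 with all libraries and -0.31 ± 0.19 without VHL-KO 4.

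Succinyl-CoA ligase conserves the energy of the thioester as a nucleoside triphosphate, and its alpha subunit Suclg1 (chr6:73248382-73276911, plus strand) pairs with either of 2 beta subunits, the GTP-forming Suclg2 (chr6:95473009-95718800, minus strand) or the ATP-forming Sucla2. Suclg1 was at 222, 193 and 417 CPM in the VHL-KO libraries and at 139.9, 176 and 147 CPM in the VHL-KO;SETD2-KO libraries, again without overlap. Its log2 fold change was -0.84 ± 0.45 (unadjusted p = 0.0973, edgeR's quasi-likelihood test), and -0.43 ± 0.17 without VHL-KO 4 (unadjusted p = 0.0453, adjusted p = 0.235). Suclg2 went from 421, 341 and 99.5 CPM to 238, 331 and 271 CPM. In VHL-KO 4 this beta subunit was therefore at its lowest while the alpha subunit was at its highest. The log2 fold change of Suclg2 was -0.04 ± 0.57 with all libraries and -0.45 ± 0.21 without VHL-KO 4 (unadjusted p = 0.0772).

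Sdha (chr13:74322254-74350280, minus strand) encodes the flavoprotein subunit of succinate dehydrogenase, which is also complex II of the respiratory chain. Its levels were 599.8, 605 and 327 CPM under VHL-KO and 404, 650.3 and 434 CPM under VHL-KO;SETD2-KO, with a log2 fold change of -0.04 ± 0.46, or -0.28 ± 0.25 without VHL-KO 4. Each group had 1 library on the other group's side. Fh1 (chr1:175600374-175625635, minus strand) encodes fumarate hydratase and varied least among the VHL-KO libraries, at 142, 126 and 154 CPM beside 92.9, 142 and 87.6 CPM. It gave -0.39 ± 0.39, and -0.33 ± 0.24 without VHL-KO 4. Mdh2 (chr5:135778480-135790398, plus strand), the mitochondrial malate dehydrogenase that regenerates oxaloacetate, was at 261, 258 and 832 CPM and at 207, 293 and 197 CPM. Mdh2 had the lowest log2 fold change of the members with all libraries (-0.96 ± 0.57), and that value shrank to -0.16 ± 0.22 without VHL-KO 4.

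Without the library labelled VHL-KO 4, all 9 members had lower means under VHL-KO;SETD2-KO, with a median log2 fold change of -0.28 beside 0.04 over all genes then tested. The 1.5-fold rule called 0 of 9, against 7.14% of genes called lower, while at any fold 1 of 9, Suclg1, had an unadjusted p under 0.05 in the lower direction, against 10.6% of all genes. The libraries did not overlap for 4 of 9, against 21.4%. Leaving out VHL-KO;SETD2-KO 3 as well, a choice made after the values were seen, left 2 libraries a group. In that comparison 9 of 9 members were lower without overlap, against 32.4% of all genes, and 9 of 9 had an unadjusted p under 0.05 at any fold, against 18%. The adjusted p was under 0.05 for 4 of 9, Suclg1, Suclg2, Sdha and Fh1, against 10.3%, with log2 fold changes between -0.58 and -0.52. No member reached the 1.5-fold difference there, so the 1.5-fold rule called 0 of 9 against 10.4%. The members that led with all libraries, Mdh2 and Ogdh, were not those that led in this smaller set, where the 9 log2 fold changes lay between -0.58 (Suclg2) and -0.29 (Cs). VHL-KO;SETD2-KO 3, left out there, was the highest of its group for every member. The pattern was not particular to the members. In the same 4 libraries 8 of 8 other cycle subunits and 9 of 9 proximal tubule markers were also lower without overlap. All of these had an unadjusted p under 0.05 by edgeR. Of 13 mRNAs of mitochondrial DNA 1 was lower without overlap, and 0 had such a p in the lower direction. Lower without overlap were also 9 of 13 genes for pyruvate entry (1 was higher without overlap) and 11 of 14 anaplerotic and exit enzymes (3 higher). So were 7 of 10 genes of mitochondrial biogenesis (2 higher), 7 of 10 mitochondrial envelope and chaperone genes (1 higher) and 4 of 5 cytosolic counterparts (0 higher).

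**Figure D2:**
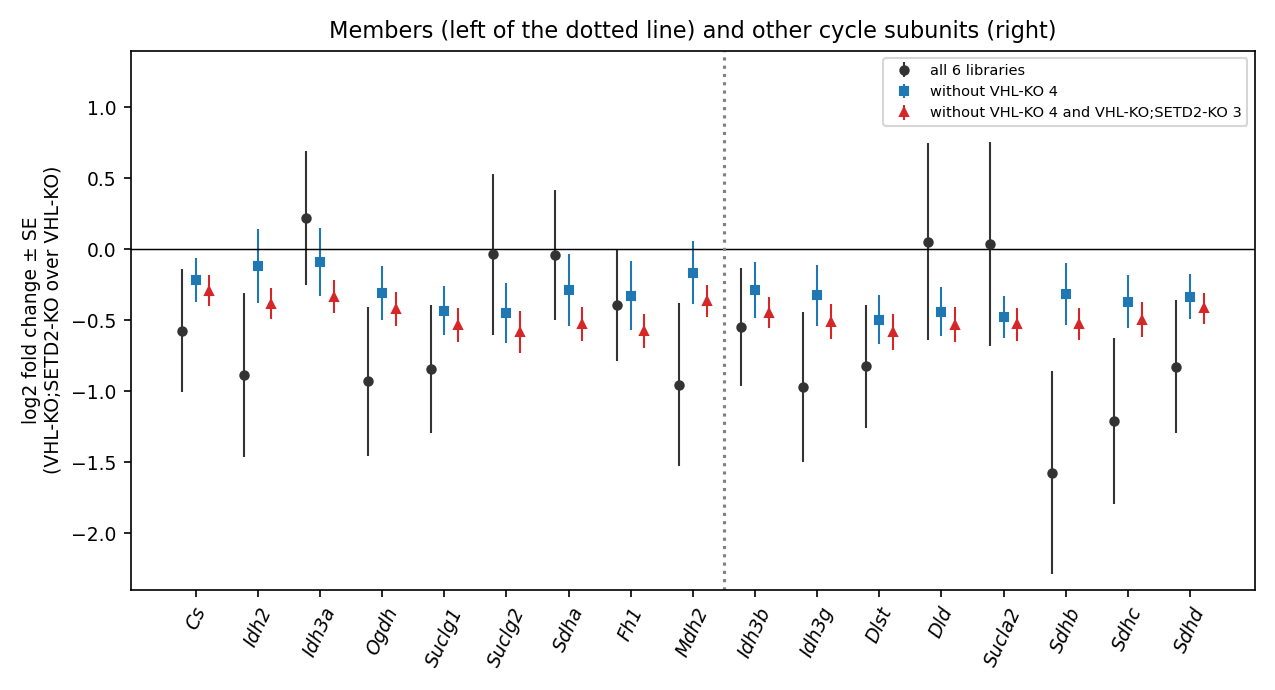
Log2 fold change of VHL-KO;SETD2-KO over VHL-KO with its standard error for the 9 members and for 8 other subunits of the cycle, from edgeR fits on all 6 libraries (black circles), on 5 without VHL-KO 4 (blue squares) and on 4 without VHL-KO;SETD2-KO 3 as well (red triangles). The black values run from -1.57 for Sdhb to 0.22 for Idh3a with wide errors, and the blue and red values lie below 0 for all 17 genes in a narrower band.

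A list of 8 other subunits of the cycle enzymes was placed likewise. In the comparison of all 6 libraries 6 of 8 had lower means, 0 of 8 were called or had an unadjusted p under 0.05 by edgeR, and the median log2 fold change was -0.83. The lowest p-values were those of Sdhb, the iron-sulfur subunit of succinate dehydrogenase (log2 fold change -1.57 ± 0.72, unadjusted p = 0.0584), and of Sdhc, a membrane anchor of the same complex (-1.21 ± 0.58, unadjusted p = 0.0712). DESeq2 called 2 of these 8 lower, against 7.75% of all tested genes, and limma-voom 0, against 3.33%. Limma-voom with sample quality weights gave 8 of 8 an unadjusted p under 0.05 in the lower direction, against 17%, and 0 by 1.5-fold. With all 6 libraries 3 of 8 were lower without overlap, against 11% of all tested genes. Sdhb was at 188, 177 and 945 CPM in the VHL-KO libraries and at 128, 187 and 125 CPM in the others, so most of its difference came from VHL-KO 4. Sdhc was at 238, 207 and 756 CPM against 161, 204 and 155 CPM, without overlap. The 8 subunits were all lower without VHL-KO 4, at -0.50 (Dlst) to -0.29 (Idh3b). Of these, 3 had an unadjusted p under 0.05 by edgeR, against 10.6% of all genes in the lower direction, and 0 were called. The labels did not overlap for 5 of 8, against 21.4% of all genes that were lower without overlap.

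VHL-KO 4 moved the members in opposite directions. Against the mean of VHL-KO 1 and 2 on the log2 CPM scale, 6 members were higher in it, from 0.20 for Fh1 to 1.68 for Mdh2, and 3 were lower, by -0.88 for Sdha, -1.23 for Idh3a and -1.93 for Suclg2. Among the other subunits Sdhb was highest at 2.37, while Sucla2 and Dld, the E3 subunit shared with pyruvate dehydrogenase, were at -3.17 and -2.91. The same library differed from VHL-KO 1 and 2 along the GC content of transcripts over all genes. Across 13824 tested genes with a GENCODE transcript, the Spearman correlation of this difference with GC content was 0.74, and with transcript length it was -0.38. These genes share a library and are not independent. The 3456 genes with the lowest GC content (up to 44.9%) had a median difference of -2.18, and the 3456 with the highest (from 54.3%) one of 1.51. Over the 17 cycle genes the correlation with GC content was 0.87. Suclg2 (44.4% GC), Dld (40.6%) and Sucla2 (43.2%) were among the low genes and Idh2 (55.6%), Ogdh (52.5%) and Sdhb (53.4%) among the high ones. Suclg1, Fh1 and Cs, by contrast, were higher in VHL-KO 4 at a GC content of 45.3%, 47.7% and 48.2%. Bins of all genes with median GC contents of 44.9% to 48.7% had median differences of -1.59 to -0.37. The part of GC content in the members' differences was not tested.

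**Figure D3:**
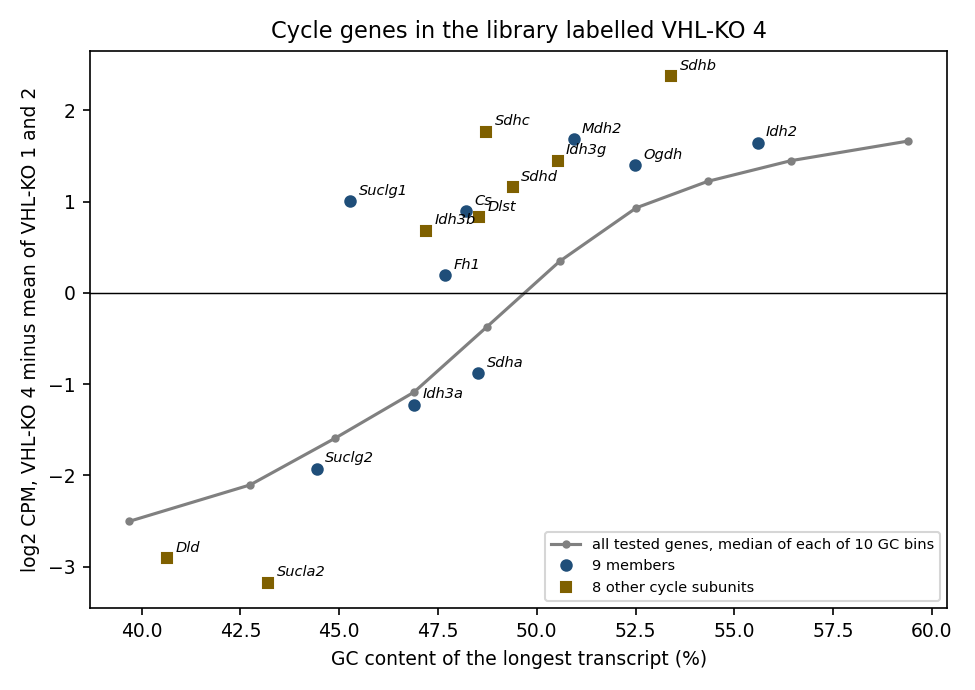
Difference in log2 CPM between VHL-KO 4 and the mean of VHL-KO 1 and 2 (vertical axis) by GC content of the longest transcript (horizontal axis, percent), for the 9 members (blue circles), 8 other cycle subunits (brown squares) and the medians of all tested genes in 10 bins of GC content (grey line). The grey line rises with GC content and ends at 1.66, and Suclg2 and Idh3a lie near it. Suclg1, Cs, Mdh2 and Fh1 lie above it, Ogdh and Idh2 lie above it by less, and Sdha lies below it.

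Ratios between partner genes within a library do not depend on library scaling, and most were close in every library except VHL-KO 4. The ratio of Idh2 to Idh3a counts was 2.47 and 2.67 in VHL-KO 1 and 2, 18.8 in VHL-KO 4, and 2.54, 2.58 and 2.44 in VHL-KO;SETD2-KO 2, 3 and 4. Suclg1 stood to the sum of the beta subunits Suclg2 and Sucla2 as 0.361 and 0.371 in the first 2 libraries, 3.47 in VHL-KO 4, and 0.386, 0.369 and 0.362 under VHL-KO;SETD2-KO. The ratio of Sdha to Sdhb was 3.19, 3.43 and 0.346 under VHL-KO and 3.14, 3.48 and 3.47 under VHL-KO;SETD2-KO. In each of these 3 ratios the values under VHL-KO;SETD2-KO lay within or next to the range of VHL-KO 1 and 2, and VHL-KO 4 stood far off.

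The choice between the beta subunits, Suclg2 to Sucla2, was 2.16, 1.89 and 4.81 under VHL-KO and 1.92, 2.27 and 1.99 under VHL-KO;SETD2-KO. Mitochondrial against cytosolic forms were given by Idh2 to Idh1, at 0.563, 0.774 and 5.90 beside 0.633, 0.936 and 0.712, and by Mdh2 to Mdh1, at 0.299, 0.354 and 0.654 beside 0.384, 0.344 and 0.338. Cs to Acly, which encodes the cytosolic enzyme that splits citrate again, gave 1.35, 1.20 and 3.14 beside 1.11, 1.31 and 1.20. Ogdh to Dlst, the E1 and E2 subunits of 1 complex, gave 1.65, 1.65 and 2.45 beside 1.91, 1.96 and 1.78, where all 3 VHL-KO;SETD2-KO libraries lay between the first 2 VHL-KO libraries and VHL-KO 4. Over the 8 ratios a two-sided exact permutation test of the log2 ratios over the 6 libraries gave p between 0.3 and 1, and Benjamini-Hochberg adjusted p between 0.914 and 1. The smallest p this design allows is 0.1, so it could not have passed 0.05.

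Over the 6 libraries the members' log2 CPM rose and fell with each other in 2 sets. The 15 pairs among the 6 members higher in VHL-KO 4 had Pearson correlations of 0.70 to 1.00, the 3 pairs among Idh3a, Suclg2 and Sdha had 0.89 to 0.95, and the 18 pairs across the sets had a median of -0.66. Over the 5 libraries without VHL-KO 4 all 36 pairs were positive, from 0.67 to 1.00 with a median of 0.91. These are descriptions over few libraries that differ in depth and cell type markers, and all genes of a library share its depth and cell makeup.

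Summed over the 9 genes, the members took 0.392%, 0.382% and 0.425% of the counts on genes outside mitochondrial DNA in VHL-KO 1, 2 and 4 and 0.310%, 0.434% and 0.329% in VHL-KO;SETD2-KO 2, 3 and 4. The highest and the lowest share were thus both in libraries labelled VHL-KO;SETD2-KO. The group means were 0.399% ± 0.022 and 0.358% ± 0.067 (SD, n = 3 each, two-sided exact permutation p = 0.4, smallest possible 0.1).

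Levels were compared between genes per kilobase of exon (TMM-normalized CPM divided by the GENCODE exon length). Under VHL-KO;SETD2-KO the order ran from Sdha (120.2 ± 32.6 CPM per kilobase, SD, n = 3) and Idh2 (104 ± 30.9) through Ogdh (77.1 ± 11.3), Mdh2 (65.2 ± 14.9) and Suclg2 (60.6 ± 10.2) to Suclg1 (33.5 ± 4.18), Fh1 (31.7 ± 8.84), Cs (31.3 ± 3.08) and Idh3a (21.0 ± 5.77). Library ranges of neighbours in this order overlapped except between Suclg2 and Suclg1 and between Cs and Idh3a. In VHL-KO 1 and 2 the first 3 were the same genes, at 146, 112 and 95.0 CPM per kilobase, and Idh3a was again last at 22.3. Including VHL-KO 4 put Idh2 first at 192 ± 138, and every pair of neighbours overlapped except Fh1 and Idh3a. Exon lengths joined over all annotated isoforms make levels of genes with rare long isoforms look lower.

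The cells are labelled PTECs, and the 9 proximal tubule markers had a mean log2 CPM of 9.81 to 9.86 in the VHL-KO libraries. In VHL-KO;SETD2-KO 2, 3 and 4 this mean was 8.62, 8.44 and 8.90. VHL-KO;SETD2-KO 3 thus had the lowest mean but the highest marker sum of its group (7289 CPM). A sum or mean over the list does not show that each marker was high in every library. Proximal tubule markers summed to 12811 to 23320 CPM under VHL-KO and 5280 to 7289 CPM under VHL-KO;SETD2-KO, with 8 of 9 lower and a median log2 fold change of -1.45. By the unadjusted 1.5-fold rule 4 of 9 were called lower, against 4.68% of all tested genes. Without VHL-KO 4 the markers' median was -0.95, with 6 of 9 called lower, against 7.14% of all genes then tested. Slc34a1, the phosphate transporter, was at 4979, 4759 and 14206 CPM against 2188, 2967 and 2444 CPM. Markers of cells outside the tubule were higher under VHL-KO;SETD2-KO for 5 of 5 podocyte genes (3 called) and 5 of 5 endothelial genes (0 called), but for 2 of 5 fibroblast genes (0 called) and 1 of 4 immune cell genes (1 of the others called lower). Of the later nephron segments, 3 of 4 thick limb genes (1 called), 2 of 3 distal convoluted tubule genes (0 called) and 4 of 7 collecting duct genes (2 called) were higher. Over all tested genes 2.65% were called higher and 4.68% lower. Without VHL-KO 4 the genes higher were 5 of 5 for fibroblasts, 0 of 4 for immune cells, 4 of 4 for the thick limb, 3 of 3 for the distal convoluted tubule and 6 of 7 for the collecting duct. Podocyte markers summed to 1437 to 2089 CPM against 1971 to 4836 CPM, endothelial markers to 828 to 1682 CPM against 1217 to 3996 CPM, and no marker on these lists was at 0 counts in any library. The 2 libraries with the lowest members, VHL-KO;SETD2-KO 2 and 4, were those with the highest podocyte sums (4836 and 4296 CPM) and endothelial sums (3996 and 3277 CPM). VHL-KO;SETD2-KO 3, where members reached 2784 CPM in sum, had podocyte and endothelial sums of 1971 and 1217 CPM. Its markers of later segments were above those of VHL-KO;SETD2-KO 2 and 4, with thick limb sums of 2179 CPM against 726 and 923 CPM, distal convoluted tubule sums of 1694 CPM against 728 and 835 CPM, and collecting duct sums of 309.7 CPM against 89.5 and 97.0 CPM. VHL-KO 4, where the members' sum was highest, also had the highest sums for these 3 segments, at 3061, 1728 and 555 CPM. Fibroblast markers summed to 70.1 to 311 CPM under VHL-KO and 71.8 to 185 CPM under VHL-KO;SETD2-KO, and immune cell markers to 39.3 to 102 CPM and 25.0 to 79.4 CPM. The part of cell makeup in the members' differences was not tested.

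**Figure D4:**
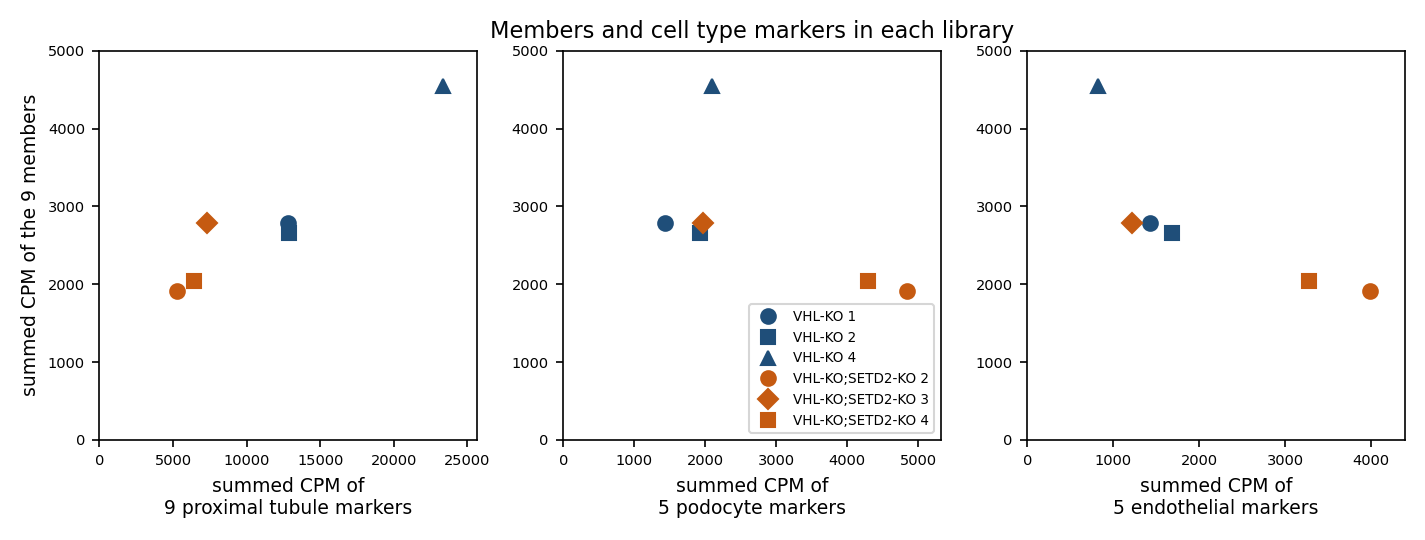
Summed CPM of the 9 members (vertical axis) against summed CPM of 9 proximal tubule, 5 podocyte and 5 endothelial markers (horizontal axes) in each library, with blue for VHL-KO and orange for VHL-KO;SETD2-KO. VHL-KO;SETD2-KO 2 and 4 have the lowest member sums (1918 and 2042 CPM) and the highest podocyte and endothelial sums, and VHL-KO 4 has the highest member and proximal tubule sums (4543 and 23320 CPM).

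Enzymes that feed the cycle were mostly not called with all 6 libraries, where 4.68% of all tested genes were called lower and 2.65% higher. Of 13 genes for pyruvate entry 9 had lower means (median log2 fold change -0.08) and 0 were called, and Pdk3 and Pdk2, kinases that switch off pyruvate dehydrogenase, had the lowest p-values. Without VHL-KO 4 the unadjusted 1.5-fold rule called 1 of the 13 lower, against 7.14% of all genes then tested. In the 4 libraries without VHL-KO;SETD2-KO 3 as well, it called 2 of the 13 lower, against 10.4%. Pdk3 was at 52.0, 47.6 and 33.3 CPM in the VHL-KO libraries and at 26.9, 21.7 and 27.3 CPM in the VHL-KO;SETD2-KO libraries, without overlap (log2 fold change -0.80 ± 0.38, unadjusted p = 0.064). Pdk2 gave -1.07 ± 0.60 and, like Idh2 and Mdh2, was highest in VHL-KO 4 (601 CPM). Among 14 anaplerotic and exit enzymes, with a median of -0.51, 1 was called, Pcx, pyruvate carboxylase, which makes oxaloacetate from pyruvate. Pcx fell from 625, 542 and 2680 CPM to 291, 518 and 310.3 CPM, a log2 fold change of -1.78 ± 0.71 (unadjusted p = 0.036, adjusted p = 0.625, edgeR). Pcx did not pass without VHL-KO 4 (-0.65, unadjusted p = 0.0696, edgeR). In that comparison 1 of the 14 was called higher and 2 lower, beside 1243 higher and 1071 lower of 15000 genes tested. Of 5 cytosolic counterparts, with a median of -0.38, 1 was called, Aco1, which doubles as an iron-regulatory protein, at -1.18 ± 0.48 (unadjusted p = 0.0372), and it stood at -0.71 without VHL-KO 4 (unadjusted p = 0.00692, adjusted p = 0.126). Of 4 succinate dehydrogenase assembly factors, with a median of -0.28, 1 was called, Sdhaf1, at -1.50 ± 0.61 (unadjusted p = 0.0382), from 20.5, 16.7 and 73.9 CPM to 13.3, 14.0 and 12.0 CPM, and at -0.51 without VHL-KO 4 it no longer met the 1.5-fold rule.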

How the data were processed

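Libraries of PTEC RNA from 6 mice were grouped by the genotype in their labels. The authors prepared directional libraries, sequenced paired ends and deposited raw counts of reads per gene symbol for each library. The submitters' processing notes name HISAT2 2.0.4 and the genome build GRCm38. The counter, annotation and use of strand are not given in the sources used here, nor is the treatment of reads shared with pseudogenes.

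From these counts, TMM-normalized CPM and edgeR's quasi-likelihood test (edgeR 4.0.16, R 4.3.3, filterByExpr, log2 CPM with prior count 2) were computed over all 14611 tested genes, with Benjamini-Hochberg adjustment. Calls required a p below 0.05 and a change of 1.5-fold or more, the thresholds of the study's methods. The fits were tested on simulated data. Alternatives were RLE and upper-quartile factors, library sizes without mitochondrial DNA genes (a setting that also used no TMM factors), and other filters. Further ones were DESeq2 1.42.0, limma-voom (limma 3.58.1) with and without quality weights, a replicate block, a fold of at least 2 and leaving out each library. The 4-library comparison was added after seeing the data. Ratios and shares were tested by exact permutation (SciPy 1.17.1).

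The members and lists were chosen with earlier results of these data known. Named genes are the members, Setd2, Vhl and Cdh16, and genes of the ratios. Also named are up to 3 called genes of each list or else the 2 with the lowest p, and the 5 genes most like the members' mean. Markers and subunits named for comparison were chosen after their values were seen. Pc was matched as Pcx, and 1 gene of the cycle is not reported here. Positions, lengths and GC content came from GENCODE vM21 (GRCm38) and promoters from RefSeq. P-values of the fits weigh the difference between labels against the spread between these libraries. Those of the permutation tests place the difference among all assignments of the labels.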

Additional observations from a re-analysis of the deposited data

How the results depend on the processing

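No member was called under any alternative, by the unadjusted or the adjusted rule. Cs, Idh2, Ogdh, Suclg1, Fh1 and Mdh2 kept a negative log2 fold change under all 16 alternatives, while 3 members changed sign. Idh3a turned to -0.26 under limma-voom with quality weights, to -0.33 in the 4 libraries, and to -0.092 without VHL-KO 4 and -0.023 without VHL-KO;SETD2-KO 3, where leaving out 1 library gave -0.092 to 0.45 in all for Idh3a. Suclg2 turned to 0.19 with library sizes without mitochondrial DNA genes, to 0.20 under limma-voom, and to 0.07 to 0.35 when VHL-KO 1, VHL-KO 2 or VHL-KO;SETD2-KO 2 was left out (0.35, 0.11 and 0.07, the range over all libraries left out being -0.45 to 0.35). Sdha turned to 0.23 with library sizes without mitochondrial DNA genes and to 0.05 to 0.10 when 1 of VHL-KO 1, VHL-KO 2, VHL-KO;SETD2-KO 2 or VHL-KO;SETD2-KO 4 was left out. The mitochondrial gene ND3 turned to 0.042, 0.024 and 0.076 with library sizes without mitochondrial DNA genes, limma-voom with quality weights and the 4 libraries. The members' median moved to -0.15 with library sizes without mitochondrial DNA genes, where the median of all genes was 0.34. That setting also dropped the TMM factors, so the 2 changes cannot be told apart. The members' median ranged from -0.71 to -0.28 when 1 library was left out, -0.28 being without VHL-KO 4. Under limma-voom with quality weights 5 members had an unadjusted p under 0.05. The causes were not tested.

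Over all genes the unadjusted rule called 387 higher and 684 lower (839 and 303 with library sizes without mitochondrial DNA genes and no TMM factors). The total of 1071 became 3651 with quality weights and 3508 in the 4 libraries, and 385 to 2314 when 1 library was left out. The adjusted total of 1 became 2 with no filter, 0 with at least 10 counts in every library, 51 with DESeq2, 2657 with quality weights, 2475 in the 4 libraries and 0 to 1 when 1 library was left out. The numbers 2 and 4 occur under both labels, and deviations of same-numbered libraries from their label means correlated at 0.16 and -0.32. VHL-KO 4 stood apart and enters both values through the VHL-KO mean. These values therefore cannot show whether same-numbered libraries share more than a number. With the replicate block 147 genes were called, Suclg2 turned to 0.46 and the members' median was -0.74. The lowest count of any member was 516, for Idh3a in VHL-KO 4, and the part of depth in the lack of calls was not tested.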

Other observations

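Mitochondrial genes outside the cycle were placed beside the members. Of 10 genes of mitochondrial biogenesis 3 had lower means (median log2 fold change 0.10) and 0 were called with all 6 libraries, led by Polrmt, the mitochondrial RNA polymerase (log2 fold change -1.08 ± 0.55), and Esrra, a nuclear receptor that drives oxidative genes (-1.24 ± 0.64). Of 10 envelope and chaperone genes 8 had lower means (median -0.19) and 0 were called, led by Vdac1, the outer membrane channel, at 555, 520.4 and 1258 CPM against 363, 442 and 359 CPM, and Timm23, an import channel subunit (-0.67 ± 0.40). Of 13 protein-coding genes of mitochondrial DNA 4 had lower means (median 0.04) and 0 were called, with ND3 (-0.35 ± 0.42) and ND4L (0.37 ± 0.48) at the lowest p-values. In these 4 lists no gene had an unadjusted p under 0.05 by edgeR, and DESeq2 called 1 lower of 10 in each of the biogenesis and envelope lists, against 7.75% of all tested genes. Of 4 related enzymes 3 had lower means (median -0.83) and 0 were called, led by D2hgdh, which oxidizes D-2-hydroxyglutarate (-0.94 ± 0.45), and Dhtkd1, an oxoadipate dehydrogenase (-0.73 ± 0.51). Without VHL-KO 4, 2 of these 4 were called lower by the unadjusted rule, against 7.14% of all genes then tested. In that comparison 3 of the 4 were lower without overlap, against 21.4%, and 1 had a higher mean. In the 4 libraries 3 of the 4 were called lower, against 10.4%.

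Among 4468 well-expressed genes outside the lists, the 5 whose log2 CPM was most like the mean of the 9 members over the 6 libraries were Mccc2, R3hdm2, Gsta3, Ndrg1 and Spink1, with Pearson correlations of 0.999, 0.996, 0.995, 0.993 and 0.985. Over the 5 libraries without VHL-KO 4 they were Cyc1, Cystm1, Dcxr, Mccc2 and Pisd-ps3, each with a correlation of 0.998 to 0.999. Not all members followed their own mean over the 6 libraries. Idh3a, Suclg2 and Sdha correlated with it at -0.25, -0.33 and 0.07, and the other members at 0.83 (Mdh2) to 0.97 (Fh1). Mccc2, a subunit of a carboxylase of leucine breakdown, was on both lists, at 61.4, 57.7 and 77.1 CPM under VHL-KO and 39.4, 60.0 and 42.4 CPM under VHL-KO;SETD2-KO. Cyc1, cytochrome c1 of complex III, was at 193, 181 and 852 CPM against 132, 193 and 137 CPM. These correlations describe 6 or 5 libraries that differ in depth and cell type markers, which all genes of a library share, and no test was made.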
